A study of Mus musculus with 6 samples.

Results

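Desmosomes and tight junctions hold the keratinocytes of the epidermis together and seal the spaces between them. To describe how their transcripts behaved at a tick bite site with and without adiponectin, 43 genes were taken from a table of 15667 genes measured in bitten mouse ear skin. The members were taken by a rule on gene symbols, which was set with earlier results of these data known. They were the desmogleins (Dsg), desmocollins (Dsc), plakophilins (Pkp), claudins (Cldn) and tight junction proteins (Tjp) with a number. Also included were Dsp, Jup, Ppl, Evpl, Cdsn, Perp, Cdh1, Ocln, Marveld2, F11r and Cgn. RNA was sequenced from 3 wild-type mice (WT, Adipo+/+) and 3 knockout littermates (KO, Adipo-/-). The KO mice were homozygous for the tm1Chan null allele of Adipoq, on a mixed background of B6 and 129 strains. All mice were females of 7 to 8 weeks, 10 nymphs of Ixodes scapularis had fed on each of them for 48 h, and 1 ear punch of 3.5 mm was taken per mouse at the bite. The gene is disrupted in every cell throughout life, so the KO mice lacked the hormone before the bite as well as during it. Unbitten skin was not analysed here.

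In a desmosome, desmogleins and desmocollins reach across the gap to the neighbouring cell. Inside the cell they are bound by the armadillo proteins plakoglobin (Jup) and plakophilins, and these are tied to keratin filaments by the plakin desmoplakin (Dsp). The cadherins change as a keratinocyte moves outward, with desmoglein 3 and desmocollin 3 most abundant in the deep layers and desmoglein 1 and desmocollin 1 in the outer ones. Tight junctions lie in the granular layer, where claudins and occludin form strands that are held by the zonula occludens scaffolds. They form the liquid barrier of the epidermis beneath the cornified layer.

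Levels are counts per 1000000 reads of the library (CPM), and values of single libraries are listed in the order of the replicate numbers 1, 2 and 3. The depth implied by the table was 3403705 to 6591509 reads, so that 3 reads stood for 0.455 to 0.881 CPM. Adipoq was at 30.5 to 63.7 CPM in WT and at 0, 2 and 0 reads in KO, which matches the labels. The keratins of the epidermis were abundant in all 6 libraries (Krt14 at 3526 to 8386 CPM). The 11 epidermal markers measured, of 12 listed, summed to 28819 to 43143 CPM in WT and to 39135 to 55158 CPM in KO, and none of them was at 0. The 16 hair follicle markers summed to 12.3, 18.3 and 23756 CPM in WT and to 1889, 9458 and 974 CPM in KO, and 12 of the 16 were at 0 in at least 1 library. WT replicate 3 therefore stood apart from the other WT libraries in the level of these hair follicle markers.

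The summed level of the junction transcripts overlapped between WT and KO skin. Together the 43 members took 2.57%, 2.88% and 2.73% of each WT library and 3.02%, 2.56% and 2.94% of each KO library. Of the 43, 38 had a mean of at least 1 CPM and were tested with limma on log2(CPM + 0.5). None of the 38 differed at an adjusted p below 0.05 (smallest adjusted p = 0.998), while 0.014% of all 14306 genes tested did (0.00699% lower and 0.00699% higher in KO). At an unadjusted p below 0.05, 1 member was lower in KO (Cldn23) and 1 was higher (Dsg1c), against 1.82% and 1.06% of all genes, or 2.88% in both directions. Among the 38 tested members the values of the groups did not overlap in 1 lower member (Cldn23) and 2 higher members (Dsg1c and Cldn19), against 4.89% and 2.95% of all genes (7.84% together). The log2 fold change of KO against WT (log2FC) was beyond 1 in either direction in 1 member, Dsg4, and in 1.64% of all genes. The median log2FC was 0.017 for the members and -0.032 for all genes. It was above 0 in 20 of the 38 members (52.6%, against 43.3% of all genes).

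**Figure D1:**
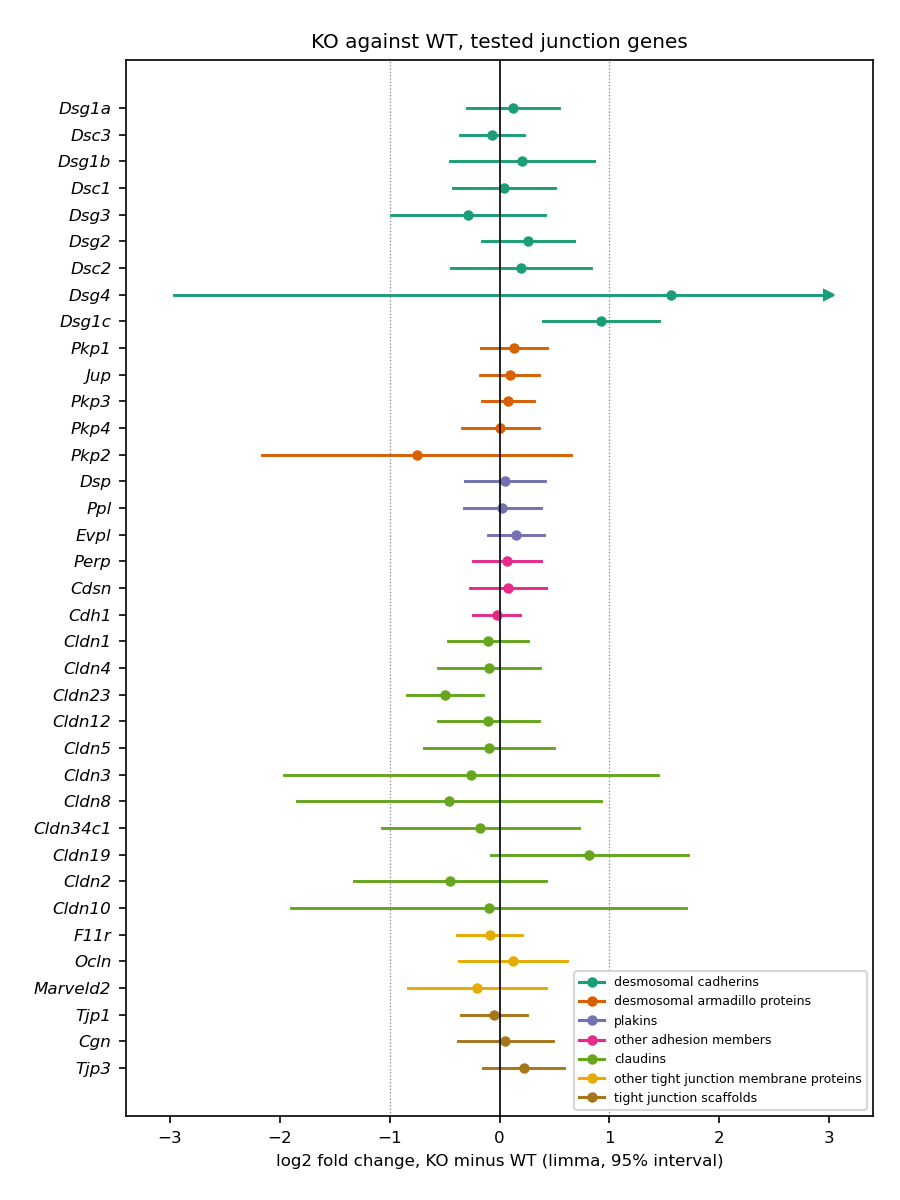
Log2 fold change of KO against WT (x axis, log2(CPM + 0.5) scale) for 37 of the 38 tested junction genes, with 95% intervals from limma and colours for the protein class. Dotted lines mark a fold change of 2 in either direction, an arrow marks an interval that runs past the axis, and the intervals of Dsg1c and Cldn23 alone leave out 0.

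The intervals show how small a difference could be seen. In 29 of the 38 members the 95% interval of log2FC lay wholly between -1 and 1, that is, within a change of 2-fold. In 15 it lay between -0.5 and 0.5. Among the 19 members with a mean of at least 100 CPM, all intervals lay within 2-fold and the log2FC values ran from -0.29 (Dsg3) to 0.21 (Dsg1b). The interval was widest for Dsg4, a gene of the hair shaft, and for claudins near 1 CPM. A bulk sample cannot tell fewer cells of a type from less RNA per cell.

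**Figure D2:**
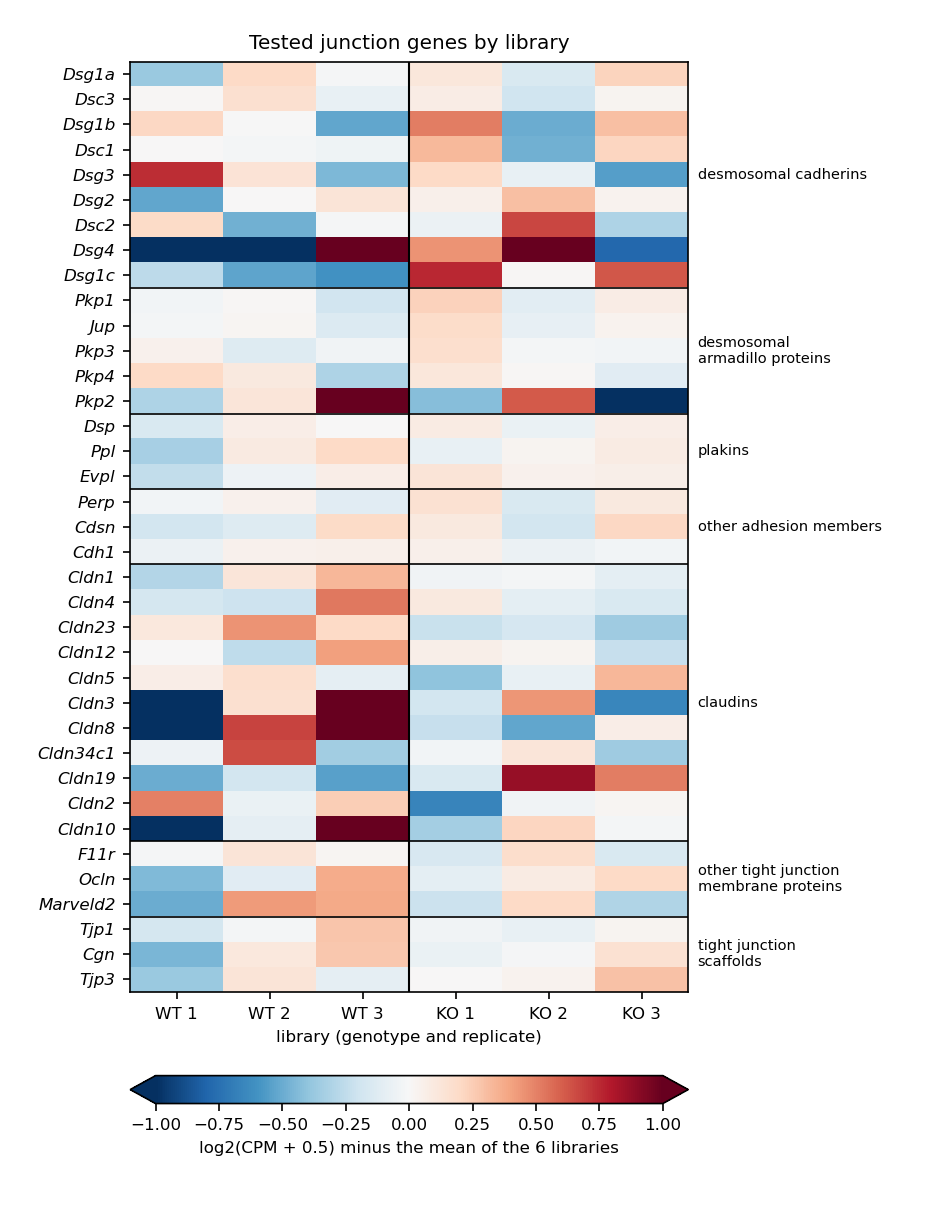
Level of 37 of the 38 tested junction genes (rows, grouped by protein class) in each library (columns, the vertical line parts WT from KO), as log2(CPM + 0.5) minus the mean of the 6 libraries, with colours ending at -1 and 1. WT replicate 1 is pale blue to blue for most plakins and tight junction genes, and WT replicate 3 is red for most claudins.

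The desmosomal cadherins were first examined, since these proteins make the contact between cells. All 9 lie in 1 cluster on chromosome 18 (19960930 to 20604526 in GRCm38). Per kilobase of exon the most abundant were Dsg1a (500 CPM per kb over the 6 libraries), Dsc3 (354), Dsg1b (261) and Dsc1 (179). Dsg3 was at 45.9 CPM per kb, and Dsg2, Dsc2, Dsg4 and Dsg1c were all below 10. Mice carry Dsg1a, Dsg1b and Dsg1c where humans have a single desmoglein 1 gene, the target of the antibodies of pemphigus foliaceus. In 1 of the 9 cadherins the unadjusted p was below 0.05, against 2.88% of all genes. The log2FC was above 0 in 7 of the 9 (median 0.20), against 43.3% of all genes (median -0.032). Leaving out WT replicates 1, 2 or 3 gave cadherin medians of 0.062, 0.25 and 0.15. Leaving out KO replicates 1, 2 or 3 gave 0.097, 0.23 and 0.11. In each of these fits 6 or 7 of the 9 stayed above 0. Of the epidermal markers 9 of 11 were above 0 (median 0.14). With their score as a covariate 5 of the 9 cadherins were above 0 and 4 below (median 0.036). The part of the epidermal markers in the cadherin values was not tested.

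Dsg1c (20247340 to 20285031, plus strand) had the smallest p of all members. It was at 15.7, 12.9 and 12.2 CPM in the WT libraries and at 32.1, 19.0 and 29.3 CPM in the KO libraries. Every KO library was above every WT library, and the lowest KO value was replicate 2. The means were 13.6 ± 1.81 CPM in WT and 26.8 ± 6.94 CPM in KO (SD, 3 libraries each). The fold change in limma was 1.90 with a 95% interval of 1.32 to 2.74 (log2FC 0.93, SE 0.23, unadjusted p = 0.00381, adjusted p = 0.998). Its log2FC was above 0, with an unadjusted p below 0.05, under each of 21 alternatives (0.65 with the epidermal covariate to 1.15 without KO replicate 2), and its adjusted p was 0.177 to 1.0 over them.

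Dsg1c shares much of its sequence with its neighbours. Of the distinct 50-base words in its GENCODE transcripts, 26.2% also occurred in those of Dsg1a and 24.2% in those of Dsg1b. Dsg1c came to 64.8, 63.6 and 74.3 reads in the WT libraries and to 211.9, 67.7 and 99.9 reads in the KO libraries, and 0 of these 6 values lay within 0.1 of a whole read. Of the 25 members with at most 1000 reads in every library, all 6 values were whole in 23, the exceptions being Dsg1c and Cldn22. Part of the Dsg1c signal was thus assigned by the estimation step. Taken per kilobase, Dsg1c made up 0.57%, 0.38% and 0.45% of the Dsg1a, Dsg1b and Dsg1c signal in the WT libraries and 0.87%, 0.74% and 0.80% in the KO libraries, and the groups did not overlap. Whether the division of reads among the 3 genes took part in the difference was not tested.

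The abundant desmoglein 1 genes overlapped between the groups. Dsg1a (20310873 to 20343353) was at 2171, 3230.3 and 2790.0 CPM in the WT libraries and at 3040.4, 2531 and 3280.4 CPM in the KO libraries (log2FC 0.12, 95% interval -0.29 to 0.54). Its lowest value was WT replicate 1, and without that library the log2FC was -0.033. Dsg1b (20376729 to 20412183) ranged from 697 to 1153 CPM in WT and from 706 to 1423 CPM in KO (0.21, -0.45 to 0.86). Of the 50-base words, 35.0% of those of Dsg1a and 48.9% of those of Dsg1b also occurred in transcripts of other genes. The separate levels of Dsg1a and Dsg1b can therefore also depend on the estimation step. Added together, Dsg1a, Dsg1b and Dsg1c were at 3339, 4242 and 3499 CPM in WT and at 4496, 3256 and 4539 CPM in the KO libraries, and the groups overlapped.

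Dsg3, the desmoglein of the deep layers and the target of the antibodies of pemphigus vulgaris, was at 512, 336 and 225 CPM in the WT libraries and at 351, 291 and 209 CPM in the KO libraries. The log2FC was -0.29 (95% interval -0.99 to 0.41), and the WT libraries alone spanned more than the difference between the groups. Without WT replicate 3 it was -0.58 (unadjusted p = 0.0395 in limma). Dsc3, its desmocollin partner, varied far less, with 1810 to 2130 CPM in WT and 1659 to 2000 CPM in KO (-0.067, -0.36 to 0.23). Dsc1 of the outer layers was at 865 to 891 CPM in WT and at 638 to 1115 CPM in KO (0.038, -0.43 to 0.50).

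**Figure D3:**
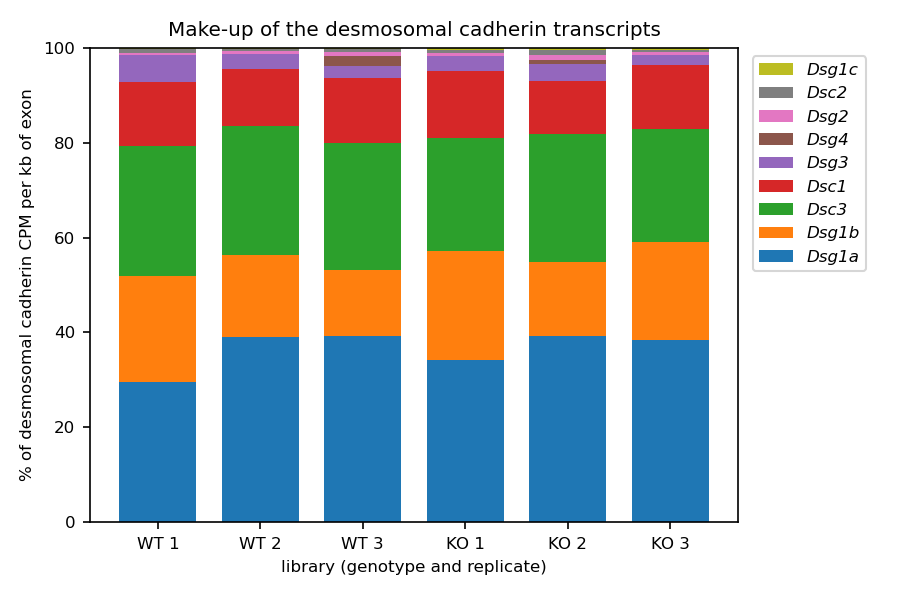
Share of each desmosomal cadherin in the summed CPM per kilobase of exon of all 9 (y axis, %) in each library (x axis). Dsg1a and Dsc3 are the broadest bands in every library, Dsg3 takes 5.66% in WT replicate 1 and 1.99% to 3.67% elsewhere, and Dsg4 takes 2.14% in WT replicate 3 and at most 0.78% elsewhere.

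The balance between the cadherins of the deep and outer layers did not separate the genotypes. Of the desmoglein signal per kilobase, Dsg3 took 9.71%, 5.47% and 4.36% in the WT libraries and 5.22%, 6.05% and 3.20% in the KO libraries. The desmocollin signal was 65.1% to 68.7% Dsc3 in WT and 61.8% to 68.8% in KO. In both families the ranges overlapped.

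Dsg4, the desmoglein of the hair cortex and the outermost epidermis, marked a difference between libraries. It was at 0, 0 and 93.3 CPM in the WT libraries and at 6.22, 30.8 and 2.35 CPM in the KO libraries. The 4 libraries with Dsg4 reads stood in the same order as their summed hair follicle markers (23756, 9458, 1889 and 974 CPM), and the 2 libraries without had 12.3 and 18.3 CPM of these markers. The log2FC was 1.56 with an interval of -2.96 to 6.08. It was 4.08 without WT replicate 3 (unadjusted p = 0.00122 in limma) and -0.80 when the hair follicle score entered as a covariate, so no direction can be given for Dsg4.

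The remaining cadherins are found in simple epithelia and in deep epidermis. Dsg2 was at 51.3 to 80.6 CPM in WT and 75.5 to 90.8 CPM in KO (0.26, 95% interval -0.16 to 0.68), and Dsc2 at 29.9 to 47.9 and 33.8 to 67.0 CPM (0.20, -0.44 to 0.84). The highest Dsc2 value was KO replicate 2.

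**Figure D4:**
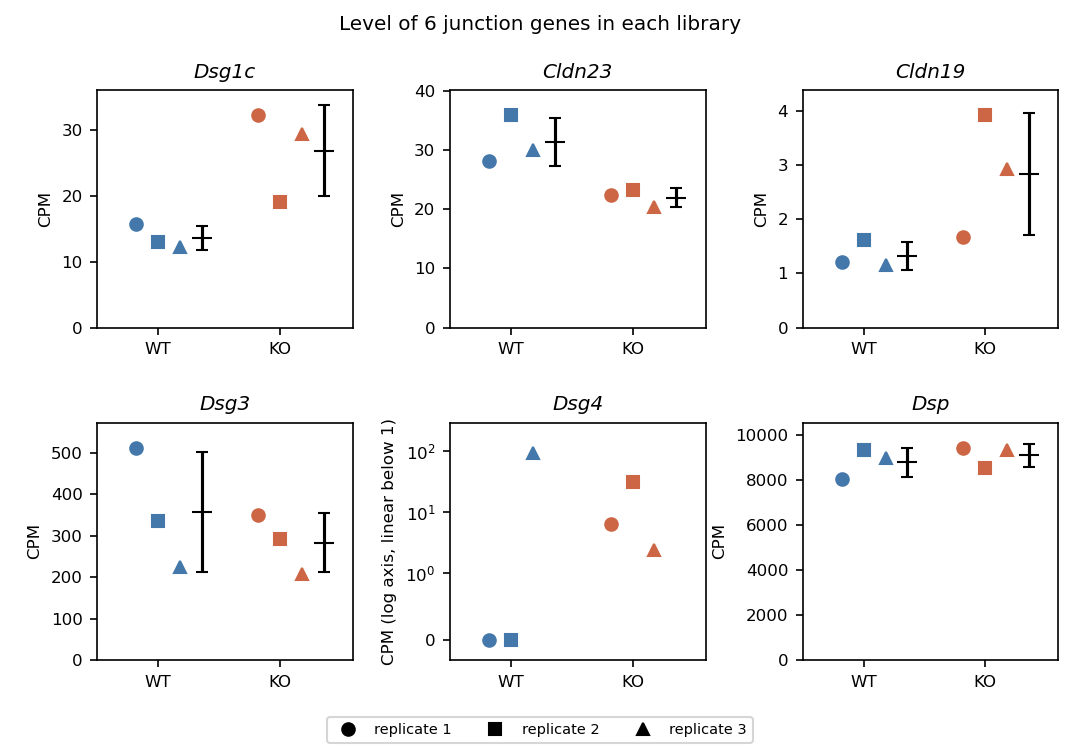
CPM of 6 junction genes (y axes; log axis for Dsg4, linear below 1) in WT (blue) and KO (orange), with a symbol for each replicate number and, except for Dsg4, the mean and SD of 3 libraries in black. The groups are apart for Dsg1c, Cldn23 and, by a narrow gap, Cldn19, and they overlap for Dsg3, Dsg4 and Dsp.

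The armadillo proteins and plakins, which carry the pull from the cadherins to the keratin filaments, had intervals within 2-fold except for Pkp2. Pkp1 (chromosome 1, 135871394 to 135919207, minus strand), the plakophilin of the outer epidermis, was at 2001, 2060 and 1789 CPM in the WT libraries and at 2387, 1900.1 and 2149.5 CPM in the KO libraries (log2FC 0.13, 95% interval -0.17 to 0.44). Jup was at 1328 to 1484 CPM in WT and 1383 to 1667 CPM in KO (0.094, -0.17 to 0.36). Pkp3 was at 436 to 489 and 466 to 534 CPM (0.080, -0.16 to 0.32), and Pkp4 at 72.0 to 102 and 82.6 to 96.8 CPM (0.0090, -0.34 to 0.36). The groups overlapped in all of these.

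Pkp2, the plakophilin of heart and simple epithelia, was low, at 1.69, 2.44 and 6.26 CPM in the WT libraries and at 1.52, 3.64 and 0.588 CPM in the KO libraries. These values stand for 7, 12 and 38 reads in WT and 10, 13 and 2 reads in KO. The log2FC of -0.75 had an interval of -2.16 to 0.65, and the highest value was again WT replicate 3. When the hair follicle score entered as a covariate it was -1.29 (unadjusted p = 0.0235 in limma), and with the epidermal score it was 0.14.

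Dsp (chromosome 13, 38151294 to 38198577, plus strand), the desmoplakin that anchors keratin in every desmosome, had the largest read count of all members. It was at 8035, 9318 and 8957 CPM in the WT libraries and at 9413, 8509 and 9317 CPM in the KO libraries. The means were 8770.0 ± 662 CPM in WT and 9080 ± 496 CPM in KO, the log2FC was 0.051, and its interval of -0.31 to 0.42 leaves fold changes of 0.805 to 1.33. Evpl (envoplakin) and Ppl (periplakin) are built into the cornified envelope. Evpl was at 595, 683 and 742 CPM in WT and at 775, 727 and 734 CPM in the KO libraries (0.15, -0.11 to 0.41), and Ppl ranged from 904 to 1306 CPM in WT and from 1080.0 to 1206 CPM in KO (0.025, -0.33 to 0.38). For both, WT replicate 1 was the lowest library.

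Of the other adhesion members, Perp (chromosome 10, 18845071 to 18857072, plus strand), a desmosomal membrane protein under control of p63, had the highest level per kilobase of exon of all 43 genes (1487 CPM per kb, Dsp being second with 924). It was at 2840.5, 2974 and 2676 CPM in the WT libraries and at 3225, 2611 and 3091 CPM in the KO libraries (log2FC 0.068, 95% interval -0.24 to 0.37). Cdsn (corneodesmosin) is the glue of the modified desmosomes of the cornified layer. It was at 937, 973 and 1218 CPM in WT and at 1143, 937 and 1229 CPM in the KO libraries (0.082, -0.26 to 0.43). Cdh1 (E-cadherin), the cadherin of adherens junctions, was the steadiest of the 19 members above 100 CPM, with a coefficient of variation of 3.72% over the 6 libraries. It was at 652 to 702 CPM in WT and at 650 to 702 CPM in KO, and the fold change of 0.983 had a 95% interval of 0.847 to 1.14.

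Tight junction genes were next compared, beginning with the claudins, which set what passes between the cells. Of 16 claudins in the table, 11 were tested, and 1 of these had an unadjusted p below 0.05, against 2.88% of all genes. The log2FC was below 0 in 10 of the 11 (median -0.10), against 8106 of all 14306 genes (median -0.032). This lean did not hold without WT replicate 3, when 4 of the 11 were below 0 and 7 above (median 0.038). Leaving out WT replicates 1 or 2 gave medians of -0.28 and -0.22, and leaving out KO replicates 1, 2 or 3 gave -0.17, -0.23 and -0.081. With the epidermal score as a covariate 5 were below 0 and 6 above (median 0.0395). Adjusting instead for hair follicle markers left 10 of the 11 below 0 and 1 above (median -0.30). Under the 3 other scalings of the libraries 10 of 11 stayed below 0.

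Cldn1 (chromosome 16, 26356646 to 26371839, minus strand), without which newborn mice lose water through the skin and die, took 41.8% to 47.0% of the claudin signal per kilobase in the 6 libraries. It was at 277, 369 and 429 CPM in the WT libraries and at 332, 335 and 318 CPM in the KO libraries. The KO values sat inside the WT range, with SDs of 76.5 CPM in WT and 8.85 CPM in KO (log2FC -0.10, 95% interval -0.47 to 0.26). Without WT replicate 1 the log2FC was -0.28 (unadjusted p = 0.0377 in limma), and without WT replicate 3 it was 0.038. Cldn4, also of the granular layer, took 29.9% to 38.7% of the claudin signal. It was at 89.6, 88.1 and 147 CPM in WT and at 109, 94.998 and 91.4 CPM in the KO libraries (-0.096, -0.56 to 0.37).

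Cldn23 (chromosome 8, 35824709 to 35826559, minus strand), a claudin of differentiated epithelia, was lower in every KO library than in any WT library. It was at 28.1, 35.8 and 30.0 CPM in the WT libraries (116, 176 and 182 reads) and at 22.3, 23.3 and 20.3 CPM in the KO libraries (147, 83 and 69 reads). The means were 31.3 ± 4.02 CPM in WT and 21.9 ± 1.53 CPM in KO. The fold change in limma was 0.708 with a 95% interval of 0.556 to 0.902 (log2FC -0.50, SE 0.15, unadjusted p = 0.0111, adjusted p = 0.998). All 6 values were whole reads, and the unadjusted p stayed below 0.05 under each of 21 alternatives (log2FC -0.58 to -0.40), whereas the adjusted p was 0.685 to 1.0. As a share of claudin signal per kilobase it did not part the groups, with 11.1%, 11.9% and 7.66% in WT and 7.80%, 8.21% and 7.52% in the KO libraries.

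Cldn19 (chromosome 4, 119255441 to 119262438, plus strand) is known from kidney, retina and the Schwann cells of nerves. It was at 1.21, 1.63 and 1.15 CPM in the WT libraries and at 1.67, 3.92 and 2.94 CPM in the KO libraries, which stand for 5, 8 and 7 reads and for 11, 14 and 10 reads. The KO values were above the WT values by a gap of under 1 read (log2FC 0.82, 95% interval -0.080 to 1.72, unadjusted p = 0.0689 in limma). The 7 Schwann cell markers, 1 of them at 0 in at least 1 library, summed to 281, 316 and 225 CPM in WT and to 245, 381 and 242 CPM in the KO libraries. Both Cldn19 and this sum were highest in KO replicate 2, and the part of these markers in the result was not tested.

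The other tested claudins overlapped between WT and KO. Cldn12 was at 21.4 to 34.1 CPM in WT and 21.7 to 26.7 CPM in KO (log2FC -0.10). Cldn5, the claudin of blood vessel walls, was at 6.92 to 8.34 and 5.46 to 9.40 CPM (-0.096), beside endothelial markers that summed to 198 to 217 CPM in WT and 135 to 219 CPM in KO. Cldn3, Cldn8 and Cldn10, claudins of ducts and simple epithelia, were highest in WT replicate 3 (7.75, 5.61 and 4.12 CPM) and lowest in WT replicate 1 (0.484, 0.726 and 0 CPM), and their KO values of 0.607 to 3.08 CPM lay between. Cldn2 and Cldn34c1 were between 0.91 and 3.46 CPM in all libraries. Cldn9, Cldn11, Cldn14, Cldn15 and Cldn22 were below a mean of 1 CPM and were not tested, with at most 10 reads each in any library. Of these 5, Cldn15 was lower in every KO library, at 0.968, 0.610 and 1.65 CPM in the WT libraries (4, 3 and 10 reads) and at 0.607, 0.560 and 0.588 CPM in the KO libraries (4, 2 and 2 reads). The lowest WT value and the highest KO value of Cldn15 lay less than 1 read apart. In the GENCODE transcripts 100% of the 50-base words of Cldn22 also occurred in Wwc2.

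Of the tight junction membrane proteins outside the claudin family, Ocln (occludin) was at 26.6, 33.6 and 47.2 CPM in the WT libraries and at 34.0, 38.4 and 41.7 CPM in the KO libraries (log2FC 0.12, 95% interval -0.37 to 0.61). Marveld2 (tricellulin), which seals the points where 3 cells meet, was at 19.1, 36.8 and 35.6 CPM in WT and at 23.4, 31.4 and 22.0 CPM in the KO libraries (-0.21, -0.84 to 0.42). Its WT replicate 1 was the lowest value, and without it the log2FC was -0.51 (unadjusted p = 0.0338 in limma). F11r (JAM-A), an adhesion molecule of the immunoglobulin family, was at 75.04, 82.6 and 76.8 CPM in WT and at 67.5, 85.8 and 68.2 CPM in the KO libraries (-0.090, -0.38 to 0.20). The groups overlapped for all 3 genes.

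Of the scaffolds on the inner side of the tight junction, Tjp1, Tjp3 and Cgn did not separate WT from KO either. Tjp1 (ZO-1) was at 135, 151 and 185 CPM in the WT libraries and at 149.6, 145 and 156 CPM in the KO libraries (log2FC -0.052, 95% interval -0.35 to 0.25). Tjp3 (ZO-3) was at 37.8, 53.5 and 46.0 CPM in WT and at 49.0, 50.2 and 59.9 CPM in the KO libraries (0.22, -0.15 to 0.59), and the gene overlaps Apba3 on the opposite strand, from which its reads could not be told if counting ignored strand. Cgn (cingulin) was at 102 to 170.3 CPM in WT and at 135 to 157 CPM in KO (0.054, -0.38 to 0.48).

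To place these genes among their partners, 45 other junction genes were examined in the same fit, and all 45 were tested. None passed at an adjusted p below 0.05 in limma, and 3 were lower and 1 higher at an unadjusted p below 0.05, against the 1.82% and 1.06% given above. Of 11 adherens junction genes the lower one was Nectin3, an adhesion receptor, at 37.5, 61.0 and 66.1 CPM in WT and at 26.7, 44.3 and 31.7 CPM in the KO libraries (log2FC -0.66, unadjusted p = 0.0340). Of 25 tight junction and polarity genes Amot, an angiomotin, was lower (-0.42, unadjusted p = 0.0387) and Cxadr, the coxsackievirus and adenovirus receptor of epithelial junctions, was higher, at 233, 285 and 235 CPM in WT and at 304, 293 and 333 CPM in the KO libraries (0.31, unadjusted p = 0.0275). Of 9 hemidesmosome genes, which fix basal cells to the basement membrane, Lamb3, a chain of laminin 332, was lower (156 ± 21.5 CPM in WT and 119 ± 5.71 CPM in KO; -0.38, unadjusted p = 0.0159). The median log2FC was -0.084, -0.096 and -0.13 for the 3 lists.

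Single libraries stood out across the members. WT replicate 1 held the lowest value for 17 of the 38 tested members (44.7%, against 20.4% of all genes), and WT replicate 3 held the highest for 13 (34.2%, against 19.9%). KO replicate 1 held the highest for 10 (26.3%, against 13.3%). Among the 19 members above 100 CPM the coefficient of variation over the 6 libraries ran from 3.72% (Cdh1) to 34.3% (Dsg3). In WT replicate 1 immune markers summed to 683 CPM, against 204 to 432 CPM in the other 5 libraries, and their part in the junction gene levels was not tested.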

How the data were processed

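Total RNA of bitten ear skin was sequenced by the authors (TruSeq, paired-end). They aligned trimmed reads to mm10 with STAR 2.7.3a, divided them among transcripts with the Partek E/M algorithm and summed per gene. The deposited values are CPM, the gene count divided by the library total, with an offset of 0.0001 that was removed here. Whether counting used read strand is not stated in the methods or labels. Below 20 reads, 91.9% to 92.8% of a library's values came within 0.1 of whole numbers of reads. Reads printed here are thus estimates, floors from them cover counting error only, and no count model served as the main test.

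KO was compared with WT by limma 3.58.1 (R 4.3.3; eBayes with a trend, two-sided, no covariate) on log2(CPM + 0.5) of the 14306 genes that averaged 1 CPM or more, with Benjamini-Hochberg adjustment over all of them. Intervals are limma's 95% intervals; an exact permutation test of 3 against 3 cannot go below p = 0.1. Fold changes are on this scale, which understates those of low genes. P-values measure the spread between these mice only. The limma step was checked on simulated counts. Unlike the data, these had the same spread setting for every gene and no differences in hair follicle markers between libraries. Members and lists were chosen with earlier results of these data known. Values in every library are given for members with an unadjusted p below 0.05, those without overlap, the 3 largest fold changes, and the most abundant and most changed member of each class. Other values per library were chosen after they were seen, as were Krt14 and Wwc2. List scores are mean log2(CPM + 0.5). Positions are those of the table (GRCm38, from 1), and exon lengths and 50-base words come from GENCODE M21. Of the 43 members 39 had the RefSeq gene start. Alternatives were other pseudocounts, filters, scalings and limma settings, limma voom on the recovered reads, a replicate block, the epidermal or hair follicle score as covariate, and each library left out. A single member is counted but not reported here by its values.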

Additional observations from a re-analysis of the deposited data

How the results depend on the processing

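None of the members passed at an adjusted p below 0.05 in limma under any of the 21 alternatives. The median log2 fold change of the members was -0.064 to 0.073 when 1 library was left out, and 0.117 without the WT and KO libraries richest in hair follicle markers. Members lower in KO at an unadjusted p below 0.05 numbered 2 with the replicate block, 4 with the hair follicle covariate and 1 to 4 without a single library. Members higher numbered 2 without the trend, 3 with the epidermal covariate, 1 to 2 without a single library and 2 without WT replicate 3 and KO replicate 2 together, the library richest in hair follicle markers in each group, an alternative chosen after seeing the data.

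Over all genes, lower genes numbered 420 with array weights, 414 with the replicate block, 589 with the hair follicle covariate, 567 without those 2 libraries and 147 to 390 without a single one, from 260. Higher genes numbered 232 with quantile normalization, 354 with the epidermal covariate, 309 with the hair follicle covariate, 330 without those 2 libraries and 89 to 320 without a single one, from 152. The lower share of calls was 63.1%, 50.6% with median-of-ratios rescaling, 45.4% with quantile normalization and 44.9% with the epidermal covariate. When a single library was left out, the count of lower genes was smallest without WT replicate 2 (147) and largest without WT replicate 3 (390). The count of higher genes was smallest without KO replicate 3 (89) and largest without WT replicate 3 (320). Among members, leaving out WT replicate 1 added Cldn1, Cldn8 (-1.15) and Marveld2 (-0.51) to the lower ones, and WT replicate 3 added Dsg3 (-0.58) to the lower and Dsg4 (4.08) to the higher ones. Leaving out KO replicate 1 added Cldn19 (1.10), and KO replicate 2 Dsc1 (0.29). Cldn23 and Dsg1c were called under all 21 alternatives. The replicate block added Dsg3 (-0.29) to the calls. Same-numbered libraries correlated at 0.376, -0.306 and -0.222 in their deviations from the group means, and 1 of the 3 pairs was above 0.1. The highest correlation was that of WT replicate 3 with KO replicate 2 (0.449). The labels give only a replicate number, and whether same-numbered libraries shared a batch was not tested.

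Over the alternatives 29 of the 38 tested members had log2 fold changes of both signs. Of the members chosen by the naming rule, the sign turned with the epidermal covariate for Cldn1 (0.0395), Marveld2 (0.0380), Perp (-0.0613), Pkp1 (-0.0130), Pkp2 (0.136) and Tjp1 (0.0524), and with the hair follicle covariate for Dsg4 (-0.80, from 1.56). It also turned without WT replicate 1 for Dsg1a (-0.0333) and Dsp (-0.0103), without WT replicate 3 for Cldn1 (0.0376) and Tjp1 (0.0727), without both libraries richest in hair follicle markers for Cldn1 (0.0230) and Tjp1 (0.0971), and without KO replicate 3 for Cdsn (-0.0010). Without a single library the log2 fold change ran from -0.0010 to 0.198 for Cdsn, from -0.28 to 0.0376 for Cldn1, from -0.0333 to 0.253 for Dsg1a, from -0.0103 to 0.0975 for Dsp and from -0.155 to 0.0727 for Tjp1. The cause was not tested. Depth limits the claudins near 1 CPM and Pkp2, whose values rest on 0 to 47 reads.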
